A study of Mus musculus with 8 samples.

Results

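The genes described here are the 3 angiomotins (Amot, Amotl1 and Amotl2), the transcriptional coactivators Yap1 and Wwtr1 (which encodes TAZ), their DNA-binding partner Tead1, the target genes Ccn1, Ccn2 and Ankrd1, and the LIM-domain gene Ajuba. They were chosen by gene name, with earlier results of these data known. All 10 names were found, each in a locus of its own, among 55223 loci in the deposited expression table. All 10 lay among the 16908 loci that averaged at least 0.5 TPM (a unit in which each library sums to the same total after correction for transcript length) and were tested.

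Adult muscle stem cells from wildtype C57BL/6J female mice aged 6 to 8 weeks had been expanded on Matrigel for 2 days. Serum was then withheld from every culture for 6 h, controls included, and the soluble BMP receptor BMPR-IA/ALK3-Fc was added at 200 ng/ml to capture BMPs carried over from the medium. BMP4 or BMP6 at 100 ng/ml, or their vehicle (4 mM HCl with 0.1% BSA), was applied as a pulse lasting 1 h. The 8 libraries came from 4 cell isolations, each giving 1 vehicle culture and 1 stimulated culture. Isolations 48 and 54 received BMP4 and are called the BMP4 experiment, with vehicle_a as its control. Isolations 75 and 77 received BMP6 and are called the BMP6 experiment, with vehicle_b as its control. Ligand and experiment therefore cannot be told apart, and the number of mice behind each isolation is not given in the sources used here. Each group held 2 biological replicates.

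In the Hippo pathway, the kinases MST1/2 and LATS1/2 phosphorylate YAP and TAZ and keep them out of the nucleus. Unphosphorylated YAP and TAZ bind TEAD factors and switch on genes such as Ccn1, Ccn2, Ankrd1 and Amotl2. Angiomotins bind YAP and TAZ directly and hold them at junctions and actin, so that Amotl2 is known both as a target and as an inhibitor of YAP. BMPs signal through SMAD1/5/9, whose immediate targets include Id1, Smad6 and Smad7, and in muscle stem cells both pathways are known for sustaining proliferation.

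Promoter sequence is shown for Amotl2, Ccn1 and Ankrd1, because these are the YAP target genes among the members whose promoter was at hand. A RefSeq promoter (GRCm38.p6, from 250 bases before to 50 bases after the annotated start) was at hand for 8 of the 10 genes, all but Tead1 and Ccn2. Capitals mark the TEAD motif GGAATG, or CATTCC where it reads on the other strand, and the GC-rich SMAD motif GGCGCC. All sequences run 5′ to 3′ on the gene's own strand. The Amotl2 stretches, on the plus strand, are chr9:102717727-102717756 and chr9:102717804-102717833. The Ccn1 sequence, chr3:145649986-145650235 on the minus strand, holds the 250 bases before the start. The Ankrd1 stretches, on the minus strand, are chr19:36120037-36120066 and chr19:36119950-36119979.
Amotl2, TEAD motif: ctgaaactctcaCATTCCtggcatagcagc
Amotl2, GC-rich SMAD motif: aagcagatcatcGGCGCCaccgactagtgc
Ccn1, promoter: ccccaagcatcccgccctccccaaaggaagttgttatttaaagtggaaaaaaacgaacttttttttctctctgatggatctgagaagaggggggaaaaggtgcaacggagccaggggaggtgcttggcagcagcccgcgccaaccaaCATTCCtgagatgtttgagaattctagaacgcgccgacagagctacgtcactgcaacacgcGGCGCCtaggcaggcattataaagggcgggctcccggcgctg
Ankrd1, first TEAD motif: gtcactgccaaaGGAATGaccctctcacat
Ankrd1, second TEAD motif: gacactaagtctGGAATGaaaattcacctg

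The Amotl2 TEAD motif begins 65 bases before the RefSeq start, and its GGCGCC begins at base 13 after it. GENCODE M21 places the start of the most abundant Amotl2 transcript 136 bases further upstream, which puts the TEAD motif 71 bases inside that transcript. Both Ankrd1 motifs, at -210 and -123 from the RefSeq start, likewise lie inside the main GENCODE transcript, whose start is 255 bases further upstream. The Ccn1 motifs lie at -103 for TEAD and -42 for GGCGCC, and its RefSeq and GENCODE starts are 4 bases apart.
Searched on both strands, GGAATG was found in 6 of the 8 promoters (Amotl2, Yap1, Wwtr1, Ccn1, Ankrd1 and Ajuba), against 14.7% of all 32851 RefSeq promoters of the same length. GGCGCC was found in 3 of 8 (Amotl1, Amotl2 and Ccn1), against 11.9% of all. The SMAD element CAGAC was found in 5 of 8, against 49.6% of all. The AP-1 motif TGANTCA and the CArG box, the SRF-binding motif, were in none of the 8, against 7.81% and 1.63% of all. None of these motifs contains another, and a match is a description of letters and not of binding.

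The stimulus itself was read from the direct BMP targets. Id1 rose from 149 to 349 TPM in isolation 48, from 100.0 to 365 in isolation 54, from 103 to 379 in isolation 75 and from 117 to 403 in isolation 77. The mean of the BMP4 and BMP6 log2 changes was 1.68 for Id1 (limma adjusted p = 0.0212), and Smad6 and Smad7 also passed in that comparison. All 3 calls were lost without any 1 of the 4 libraries of the BMP6 experiment, and that of Id1 also without the BMP4 library of isolation 54, with limma adjusted p up to 0.162 for Id1, 0.16 for Smad6 and 0.0597 for Smad7. Libraries held an estimated 48012828 to 58002740 reads, and the members' own estimated reads ran from 129 for Ccn2 to 34234 for Ankrd1. Muscle stem cell and myoblast markers (7 of 9 tested) summed to 1193 to 2732 TPM in the libraries. Among them Des read 412 to 1561 TPM, Myod1 422 to 839 and Pax7 11.1 to 16.9. Calcr and Chodl did not pass the filter, at no more than 0.279 and 0.262 TPM. Endothelial markers summed to at most 0.704 TPM, with none of 6 passing the filter and Tie1 and Emcn at 0 throughout. Immune markers summed to at most 2.17 TPM, with Ptprc and Adgre1 at 0. Schwann cell markers (4 of 4 tested) summed to 10.6 to 30.6 TPM. The replicates of the BMP4 experiment lay further apart than those of the BMP6 experiment: estimated reads of replicates differed with a chi-square per locus of 247.4 in vehicle_a, 273 in BMP4, 38.02 in vehicle_b and 39.03 in BMP6. One spread per locus was estimated over all 8 libraries, so a gene has the same SE for both ligands.

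Amotl2 was higher in the stimulated culture of every isolation. In the BMP4 experiment it stood at 34.8 TPM with vehicle and 54.2 with BMP4 in isolation 48, and at 44.4 and 74.1 in isolation 54. In the BMP6 experiment it stood at 20.4 and 41.6 TPM in isolation 75, and at 19.2 and 40.2 in isolation 77. Every stimulated culture exceeded both vehicle cultures of its experiment, and the BMP6 pulse brought Amotl2 to a level within the range of the unstimulated vehicle_a cultures. The ratios of stimulated to vehicle TPM were 1.56 and 1.67 with BMP4 and 2.04 and 2.10 with BMP6.

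On the log2(TPM + 0.5) scale the Amotl2 change was 0.68 with BMP4 (SE 0.18, 95% interval 0.24 to 1.12) and 1.03 with BMP6 (SE 0.18, interval 0.59 to 1.47). Neither passed when isolations were treated as unpaired, with limma adjusted p = 0.96 and 0.723. With the isolation as a block the SE was 0.045 for both, and Amotl2 passed with BMP4 (limma adjusted p = 0.0159), with BMP6 (0.0121) and in the mean of both log2 changes, 0.86 (0.0031). By p it then ranked 28, 5 and 8 of the 16908 loci in these 3 comparisons. The blocked call in the mean held when any 1 of the 4 isolations was left out, with adjusted p between 0.00804 and 0.0411. The blocked BMP4 call was lost without isolation 54 (0.0612), 75 (0.0789) or 77 (0.0749). The blocked BMP6 call was lost without isolation 75 (0.185) or 77 (0.146). In every blocked fit that leaves out 1 isolation, its ligand keeps a single pair, which is assumed to vary like the pairs of the other experiment.
The BMP6 change exceeded the BMP4 change by 0.35 with a blocked interval of 0.18 to 0.51, which did not pass (limma adjusted p = 0.264, and 1.00 without the block).

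Among the 10 members, 0 passed without the block in either ligand's comparison or in their mean, where 0.0237% (BMP4), 0.0118% (BMP6) and 0.071% (mean) of all tested loci passed in limma. An unadjusted limma p under 0.05 was reached by 3 members with BMP4 (Amotl2, Ccn1 and Ajuba), by 1 with BMP6 (Amotl2) and by 2 in the mean (Amotl2 and Ajuba), where 3.31%, 1.26% and 2.4% of all loci reached it. voom on estimated reads without the block also passed 0 members in these comparisons. With the block 1 of 10 passed in each, Amotl2 every time, where 0.633%, 0.148% and 0.674% of all loci passed. voom with the block passed 4 members with BMP4 (Amotl2, Wwtr1, Ccn1 and Ajuba) and Amotl2 alone with BMP6 and in the mean, where 6.15%, 0.432% and 2.05% of all loci passed. The median log2 change of the 10 was 0.08 with BMP4 and 0.02 with BMP6, and over all tested loci -0.02 and -0.00.

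**Figure D1:**
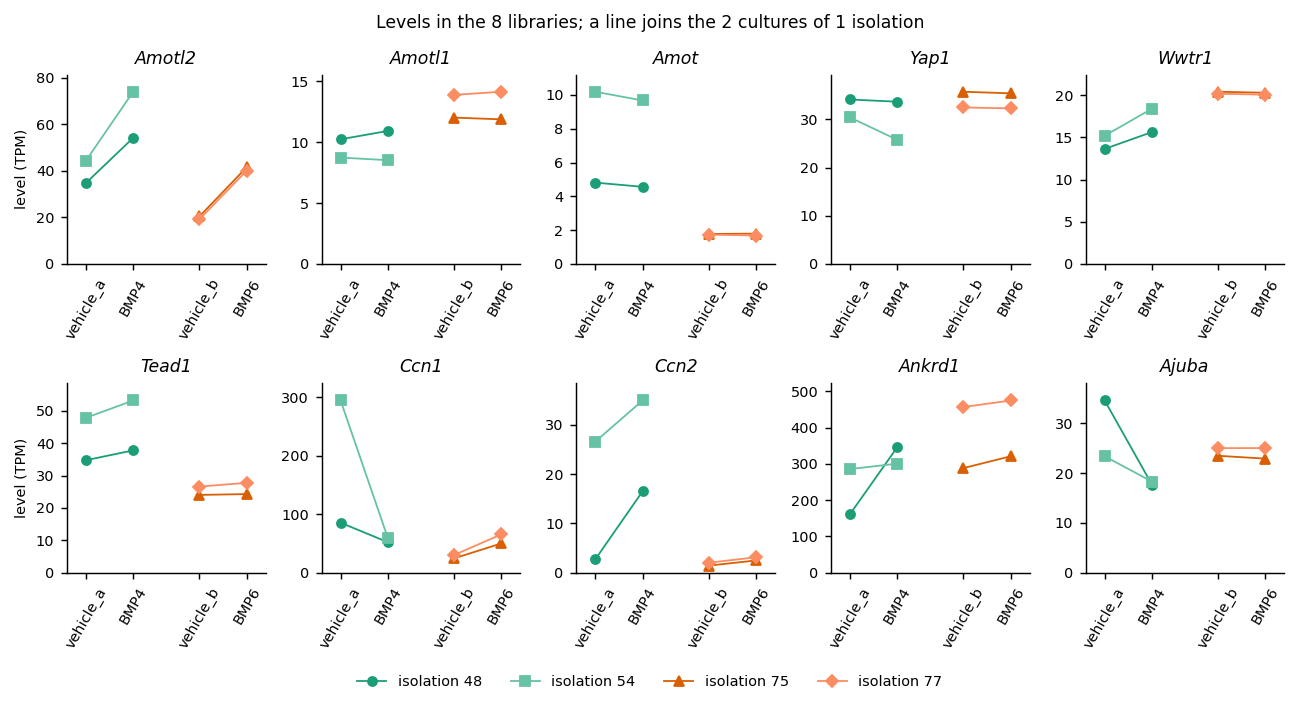
Level of each of the 10 genes in the 8 libraries, in TPM on linear axes that start at 0. A line joins the vehicle and the stimulated culture of 1 isolation; Amotl2 slopes upward in all 4 isolations, while Ccn1 slopes downward in both BMP4 isolations and upward in both BMP6 isolations.

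Most of the Amotl2 signal came from a transcript of 4328 bases in every library. A second transcript, which begins upstream at chr9:102594001 in GRCm39, was listed only with BMP4, at 1.59 and 1.18 TPM, and at 0 in the other 6 libraries.

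The other angiomotins did not pass with either ligand. Amotl1, which encodes a junctional family member, went from 10.2 to 10.9 TPM and from 8.74 to 8.53 with BMP4, and from 12.0 to 11.9 and from 13.9 to 14.2 with BMP6. Stimulated and vehicle levels overlapped in both experiments. Amot, the founding member, went from 4.81 to 4.56 TPM in isolation 48 and from 10.2 to 9.67 in isolation 54, and lay between 1.68 and 1.79 in all 4 cultures of the BMP6 experiment. The blocked 95% intervals of the BMP4 change were -0.13 to 0.19 for Amotl1 and -0.28 to 0.14 for Amot, and those of the BMP6 change were -0.16 to 0.16 and -0.23 to 0.20. These blocked intervals leave out a change as large as that of Amotl2. Without the block the Amot intervals, -1.07 to 0.93 with BMP4 and -1.01 to 0.99 with BMP6, do not leave out the BMP4 change of Amotl2, and leaving out 1 library moved the Amot BMP4 change between -0.57 and 0.43. Amotl2 made up 69.8% and 70.1% of the summed angiomotin TPM in vehicle_a and 77.8% and 80.3% with BMP4. Its share was 59.7% and 55.1% in vehicle_b and 75.3% and 71.7% with BMP6, so the makeup of the family moved with Amotl2 in every isolation.

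Yap1 and Wwtr1, the coactivators that angiomotins bind, did not pass in limma with either ligand. Yap1 read 34.1 TPM with vehicle and 33.7 with BMP4 in isolation 48, 30.4 and 25.8 in isolation 54, 35.7 and 35.4 in isolation 75, and 32.5 and 32.3 in isolation 77. It was lower in all 4 pairs, as 9.2% of all tested loci were, and its mean log2 change was -0.07 with a blocked interval of -0.18 to 0.05. Wwtr1 read 13.6 and 15.6 TPM in isolation 48 and 15.2 and 18.4 in isolation 54, so that the BMP4 cultures lay above both vehicle cultures. In the BMP6 experiment it stayed between 20.1 and 20.4 in all 4 cultures. A direction of higher with BMP4 and lower with BMP6 in both isolations was shown by 7.52% of tested loci. Its BMP4 change was 0.23 (blocked interval 0.10 to 0.36, limma adjusted p = 0.128, and 0.0358 in voom with the block) and its BMP6 change -0.01 (interval -0.14 to 0.12). Yap1 exceeded Wwtr1 in every library, by 1.40 to 2.50 times in TPM.

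Tead1, the DNA-binding partner, read 34.7 and 37.8 TPM in isolation 48, 47.8 and 53.2 in isolation 54, 24.0 and 24.3 in isolation 75, and 26.6 and 27.7 in isolation 77. The stimulated culture was higher in 4 of 4 pairs, but groups overlapped in both experiments. The mean change was 0.09 (blocked interval 0.01 to 0.16, limma adjusted p = 0.328). Its reads were split over 9 annotated transcripts whose shares differed between libraries, so only the locus total is given.

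Ccn1, which encodes the secreted matricellular protein CYR61, moved in opposite directions in the 2 experiments. It went from 85.3 to 52.0 TPM in isolation 48 and from 294 to 58.9 in isolation 54, and went from 24.3 to 49.9 in isolation 75 and from 30.1 to 65.5 in isolation 77. Groups did not overlap in either experiment. All 4 stimulated cultures lay between 49.9 and 65.5 TPM, whereas the vehicle cultures spanned 24.3 to 294.
The log2 change was -1.51 with BMP4 (SE 0.52, limma adjusted p = 1, 0.141 with the block and 0.0381 in voom with the block) and 1.06 with BMP6 (adjusted p = 1, and 0.809 with the block). The BMP6 change minus the BMP4 change was 2.58 (SE 0.74, interval 0.80 to 4.35), which ranked 42 by p over all loci but did not pass (limma adjusted p = 1.00, and 0.274 with the block). With the block it passed when isolation 48 (3.38, limma adjusted p = 0.00484) or isolation 54 (1.77, 0.0335) was left out, as did the BMP6 change (0.0181 and 0.0186) and, without isolation 48, the BMP4 change (-2.31, 0.0068). In those fits the BMP4 change rests on 1 pair. In limma 0 of all loci, 0%, passed for this difference with or without the block, while 244 and 2251 loci (1.44% and 13.3%) had an unadjusted p under 0.05. voom with the block passed 30 loci (0.177%) and no member. Among the members the unadjusted limma p was under 0.05 for 1 without the block (Ccn1) and for 4 with it (Amotl2, Wwtr1, Ccn1 and Ajuba). A direction of lower with BMP4 and higher with BMP6 in both isolations was shared by 9.41% of tested loci. Vehicle_a Ccn1 was highest in isolation 54, the isolation in which markers of differentiating muscle summed to 16612 TPM with vehicle, against 4860 in isolation 48. With BMP4 these markers summed to 16102 TPM in isolation 54 and 4461 in isolation 48, where Ccn1 read 58.9 and 52.0 TPM. Whether these markers play a part in the Ccn1 values was not tested.

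**Figure D2:**
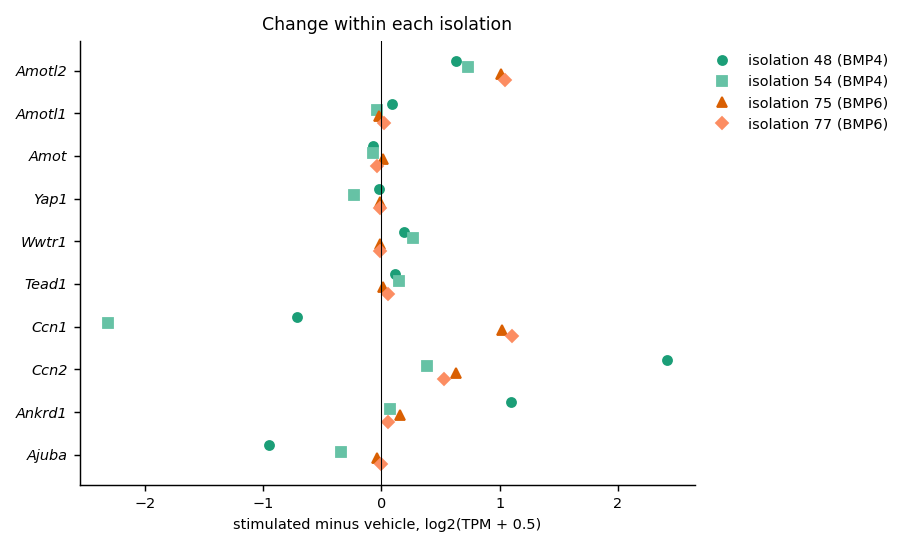
Stimulated minus vehicle within each isolation on the log2(TPM + 0.5) scale, 1 mark per isolation. The 4 Amotl2 marks lie between 0.63 and 1.05; the Ccn1 marks lie at -0.71 and -2.31 with BMP4 and at 1.02 and 1.11 with BMP6, and those of Amot, Amotl1 and Tead1 stay near 0.

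Ccn2, which encodes the matricellular protein CTGF, read 2.69 TPM with vehicle and 16.5 with BMP4 in isolation 48, 26.6 and 34.9 in isolation 54, 1.42 and 2.47 in isolation 75, and 2.01 and 3.11 in isolation 77. It was higher in 4 of 4 pairs, but the BMP4 groups overlapped, with vehicle cultures at 2.69 and 26.6 TPM. The changes were 1.40 with BMP4 (SE 0.92) and 0.58 with BMP6 (SE 0.92), and both failed the test with and without the block. The BMP4 change passed with the block when isolation 54 was left out and 1 BMP4 pair remained (2.41, limma adjusted p = 0.0223). Leaving out 1 vehicle_a or BMP4 library moved the BMP4 change between -0.14 and 2.94 on the log2 scale.
Ankrd1, a muscle ankyrin-repeat gene and YAP target, was the most abundant member by mean TPM in every group. It read 161 and 346 TPM in isolation 48, 286 and 301 in isolation 54, 289 and 321 in isolation 75, and 457 and 475 in isolation 77. It was also higher in 4 of 4 pairs, and the BMP4 change of 0.59 (SE 0.35) rested mainly on isolation 48, where it was 1.10 against 0.07 in isolation 54. With the block and without isolation 54, on that 1 pair, it passed (limma adjusted p = 0.0194). Altogether 4 members (Amotl2, Tead1, Ccn2 and Ankrd1) were higher in 4 of 4 pairs, as 8.19% of tested loci were.

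Ajuba, whose LIM protein binds LATS kinases and restrains them, was lower with BMP4 in both isolations. It read 34.6 and 17.7 TPM in isolation 48, 23.4 and 18.3 in isolation 54, 23.5 and 22.9 in isolation 75, and 25.0 and 25.0 in isolation 77. Both BMP4 cultures lay below both vehicle_a cultures, and BMP6 and vehicle_b overlapped. The BMP4 change was -0.65 (SE 0.19) and missed the threshold in limma (adjusted p = 1, and 0.128 with the block). It passed in voom with the block (-0.68, 0.0352) and in limma with the block when isolation 54 was left out, on the 1 BMP4 pair that remains (-0.95, 0.0309). The BMP6 change minus the BMP4 change was 0.63, with limma adjusted p = 1.00, and 0.345 with the block.

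Counting groups that do not overlap, 3 of 10 members were higher with BMP4 (Amotl2, Wwtr1 and Ankrd1), against 10.3% of all tested loci, and 2 were lower (Ccn1 and Ajuba), against 12%. With BMP6 3 were higher (Amotl2, Ccn1 and Ccn2), against 10.6%, and 0 were lower, against 9.95%. Amotl2 was the member in both of the higher groups.

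**Figure D3:**
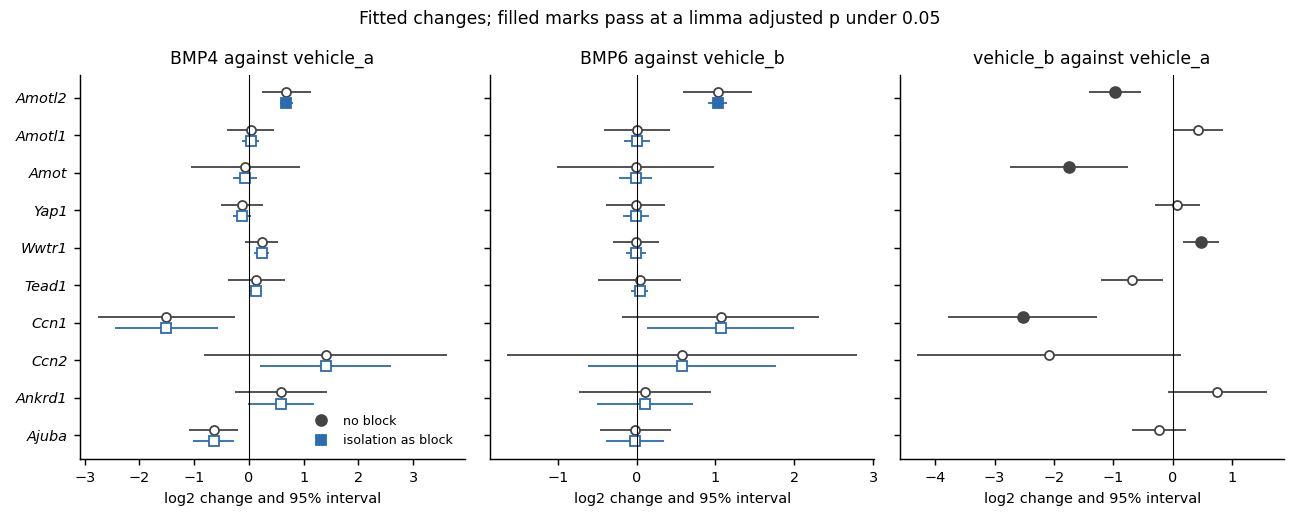
Fitted log2 changes with 95% intervals from limma, without a block (circles) and with the isolation as a block (squares), for BMP4, BMP6 and the difference between vehicle groups, which has no blocked fit. Filled marks have an adjusted p under 0.05: Amotl2 with the block for both ligands, and Amotl2, Amot, Wwtr1 and Ccn1 between the vehicle groups; the horizontal scales differ between panels.

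Several of these genes stood at different levels in the vehicle cultures of the experiments. Amotl2 was lower in vehicle_b than in vehicle_a by a log2 difference of -0.97 (SE 0.18, limma adjusted p = 0.0182), Ccn1 by -2.53 (SE 0.52, 0.022) and Amot by -1.74 (SE 0.42, 0.0300). Wwtr1 was higher in vehicle_b by 0.48 (SE 0.12, adjusted p = 0.0356). These 4 of 10 members passed where 27.2% of all tested loci did, 16.6% lower and 10.6% higher in vehicle_b. For Tead1 (-0.68, limma adjusted p = 0.0597), Ccn2 (-2.08, 0.128), Ankrd1 (0.76, 0.138), Amotl1 (0.43, 0.106), Ajuba (-0.23, 0.372) and Yap1 (0.08, 0.71) the difference did not pass. Groups did not overlap for 5 members that were lower in vehicle_b (Amot, Amotl2, Tead1, Ccn1 and Ccn2), against 38.8% of loci, and for 3 that were higher (Amotl1, Wwtr1 and Ankrd1), against 34.9%. The median difference of the members was -0.45, and that of all tested loci -0.01.

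The calls between vehicle groups leaned on single libraries. Without either vehicle_b library none of the 4 passed, and without the vehicle_a culture of isolation 54 only Ccn1 did. The Amotl2 adjusted p was then 0.0819 (without isolation 75), 0.117 (without isolation 77) and 0.0942 (without isolation 54). Without either BMP6 library Amotl2 and Ccn1 still passed, and Amot (0.0606) and Wwtr1 (0.0723 and 0.0722) did not. Without the vehicle_a culture of isolation 48, Wwtr1 alone was lost (0.0899).
Markers of other states moved with this comparison. Differentiating muscle markers (all 7 tested, none at 0) summed to 4860 and 16612 TPM in vehicle_a and to 501 and 703 in vehicle_b, and stem cell and myoblast markers to 2554 and 2732 against 1193 and 1589. Fibroblast markers (3 of 6 tested) summed to 121 and 196 TPM against 33.4 and 32.0, and pericyte and smooth muscle markers (4 of 6 tested) to 25.0 and 47.9 against 9.26 and 12.1. The 3 fibroblast markers tested, Col1a1, Col3a1 and Thy1, passed as lower in vehicle_b. The others, Pdgfra, Dcn and Lum, were near the floor, at no more than 0.329, 0.357 and 0.0641 TPM in any vehicle culture. Against these sums, the stem cell and myoblast marker Myf5 passed as higher in vehicle_b, at 52.3 and 38.2 TPM in vehicle_a and 94.0 and 86.4 in vehicle_b (limma adjusted p = 0.0220). Epithelial markers (1 of 4 tested) summed to 0.269 and 0.325 TPM in vehicle_a and to 3.04 and 3.67 in vehicle_b, and Krt18 among them passed as higher. The part of these markers in the vehicle differences was not tested, and in bulk RNA fewer cells of a type cannot be told apart from less RNA per cell. Within isolations the differentiating muscle markers moved from 4860 to 4461, from 16612 to 16102, from 501 to 632 and from 703 to 694 TPM under the pulse. The sum of pericyte and smooth muscle markers went from 25.0 to 29.4, from 47.9 to 60.02, from 9.26 to 11.8 and from 12.1 to 17.9 TPM, higher in 4 of 4 pairs as Amotl2 was. Cspg4 alone went from 17.0 to 21.9, from 23.3 to 33.6, from 7.62 to 11.2 and from 11.4 to 17.2 TPM. The set did not rise as a whole: of the 4 tested, 2 had a positive change with BMP4, 2 with BMP6 and 2 in the mean. Cspg4 among them passed in the mean with the block (0.49, limma adjusted p = 0.0261) and not without isolation 54, 75 or 77 (up to 0.219).
Myf5, which encodes a myogenic transcription factor, went from 52.3 to 23.0, from 38.2 to 16.6, from 94.0 to 58.7 and from 86.4 to 52.3 TPM under the pulse. With the block it fell with BMP4 (95% interval -1.27 to -1.07 on the log2 scale, limma adjusted p = 0.00326), by 0.70 with BMP6 (0.0192) and by 0.93 in the mean (0.00151), and it did not pass without the block (0.427, 1 and 0.217). The blocked BMP6 call was lost without isolation 75 or 77 (0.302 and 0.278). The other stem cell and myoblast markers did not all follow: of the 7 tested, 0 had a positive change with BMP4, 3 with BMP6 and 1 in the mean. The sum over all 9 went from 2554 to 2280, from 2732 to 2545, from 1193 to 1330 and from 1589 to 1657 TPM. Myf5, Cspg4, Krt18, Des, Myod1, Pax7, Calcr and Chodl were named after their values were seen, and the part of such markers in the Amotl2 change was not tested.

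In vehicle_a the order by mean TPM was Ankrd1, Ccn1, Tead1, Amotl2, Yap1, Ajuba, Ccn2, Wwtr1, Amotl1 and Amot, and the ranges of neighbours overlapped except between Ccn1 and Tead1, Amotl2 and Yap1, and Wwtr1 and Amotl1. In vehicle_b it was Ankrd1, Yap1, Ccn1, Tead1, Ajuba, Wwtr1, Amotl2, Amotl1, Amot and Ccn2. Amotl2 thus stood 4th in vehicle_a and 7th in vehicle_b, and after BMP6 it stood 3rd, below Ankrd1 and Ccn1 with no overlap with either neighbour. With BMP4 it stood 2nd, overlapping Ccn1.

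The rest of the pathway was read from lists of known members. Of 23 tested Hippo kinases and upstream regulators, 0 passed with either ligand or in the mean, with or without the block. In limma an unadjusted p under 0.05 was reached by 0 of them without the block, and with it by 9 for BMP4, 0 for BMP6 and 5 for the mean, where 20.3%, 5.72% and 13.4% of all loci reached it. Their median log2 change was 0.00 with BMP4 and -0.00 with BMP6. Lats2 shared a locus with Xpo4, and its own transcript went from 18.6 to 20.8, from 19.1 to 22.3, from 20.3 to 20.9 and from 15.9 to 17.1 TPM. Between vehicle groups Lats1, the other LATS kinase, was higher in vehicle_b by 1.03 on the log2 scale, and Dchs1, a giant cadherin upstream of the kinases, was lower by a difference of -1.54. Of the 23, only 1 thus passed as higher and 1 as lower, where 10.6% and 16.6% of all loci did.

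Of 6 other TEAD and Vgll genes tested, 0 passed with a ligand and no block. An unadjusted limma p under 0.05 was then reached by 3 with BMP4, 1 with BMP6 and 2 in the mean. The shares of all loci were 3.31%, 1.26% and 2.4%. The blocked counts were 5, 3 and 4 of the 6, against 20.3%, 5.72% and 13.4% of all loci. Vgll4, whose protein competes with YAP for TEAD, went from 12.7 to 17.7, from 14.8 to 23.7, from 9.43 to 16.1 and from 7.67 to 13.2 TPM. Every stimulated culture was above both vehicle cultures of its experiment. The mean Vgll4 change was 0.65, which passed with the block (limma adjusted p = 0.0167) and not without it (0.52). The blocked call was lost without isolation 75 or 77 (adjusted p up to 0.157). With the block Vgll3, another TEAD cofactor, rose by 0.62 with BMP4, and Vgll2, a muscle-enriched cofactor, had a change of -0.37, both calls being lost without any 1 isolation (limma adjusted p 0.089 to 0.115 and 0.103 to 0.14). Between vehicle groups 4 of the 6 were lower in vehicle_b: Tead4 (-2.46), Tead3 (-1.13), Tead2 (-0.86) and Vgll3 (-0.59), against 16.6% of all loci.

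Of 15 other YAP target genes, 0 passed without the block. An unadjusted limma p under 0.05 was reached by 2 (BMP4), 1 (BMP6) and 1 (mean), where 3.31%, 1.26% and 2.4% of all loci reached it. In the blocked fit 7, 3 and 6 reached it, where 20.3%, 5.72% and 13.4% of all loci did. With the block 1 passed, in the mean: Foxf2, a forkhead factor gene, which went from 2.06 to 4.91, from 1.73 to 3.45, from 2.37 to 4.31 and from 1.61 to 2.77 TPM. Its mean change was 0.82 (limma adjusted p = 0.0316 with the block and 0.713 without), and the blocked call was lost without any 1 isolation (0.0532 to 0.266). The median change of the 15 was 0.10 with BMP4 and 0.03 with BMP6. Between vehicle groups Igfbp3 (1.06) and the receptor kinase gene Axl (1.02) were higher in vehicle_b, and Arhgef17 and Ccdc80 (both -2.67) lower, where 10.6% and 16.6% of all loci passed in these directions. Of the 15, 11 had a positive difference, with a median of 0.30 against -0.01 over all loci.

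**Figure D4:**
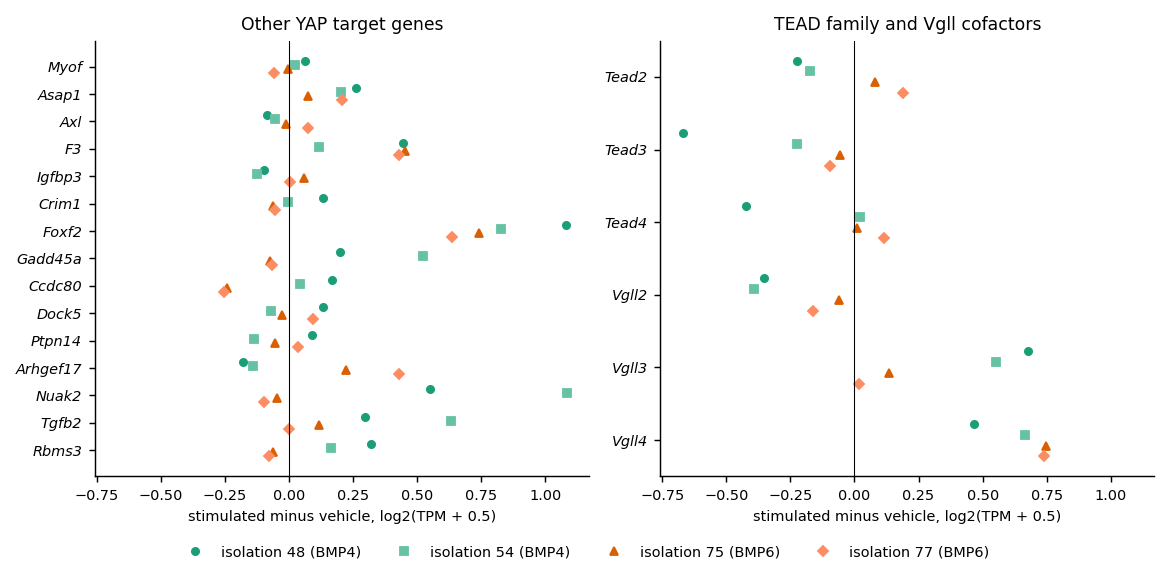
Stimulated minus vehicle within each isolation, on the log2(TPM + 0.5) scale, for the 15 other YAP target genes tested (left) and the 6 other TEAD and Vgll genes (right). The marks of all 4 isolations lie right of 0 for Foxf2 and Vgll4, among others.

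Among 5 Ajuba-family and Zyxin LIM genes 0 passed with either ligand, with or without the block. An unadjusted limma p under 0.05 was reached by 0 without the block and by 2 (BMP4) and 0 (BMP6) with it. The shares of all loci for BMP4 and BMP6 were 3.31% and 1.26% without the block and 20.3% and 5.72% with it. Of 13 genes for angiomotin partners and turnover 0 passed without the block (unadjusted p under 0.05 in 1 with BMP4 and 0 with BMP6), and Lin7c, a polarity scaffold gene, rose by 0.42 with BMP4 with it, a call lost without any 1 isolation (limma adjusted p 0.0871 to 0.179). In the blocked fit 2 of these 13 genes (BMP4) and 0 (BMP6) had an unadjusted limma p under 0.05, against the same shares. Between vehicle groups 2 of the 13 passed as higher in vehicle_b, Lin7c (1.20) and the ubiquitin ligase gene Rnf146 (0.51). As lower passed 3, among them the polarity and junction genes Patj (-2.91) and Tjp1 (-1.36). Of all loci 10.6% passed as higher and 16.6% as lower.
Of 11 SRF-MRTF targets, which like YAP targets respond to actin, Fhl2 alone passed with a ligand, by 0.58 with BMP4 and the block, and not without any 1 isolation (limma adjusted p 0.0801 to 0.189). With BMP4 and the block 0.633% of all loci passed. An unadjusted limma p under 0.05 was reached without the block by 1 of the 11 (BMP4), 0 (BMP6) and 1 (mean). The shares of all loci were 3.31%, 1.26% and 2.4%. The blocked counts were 3, 0 and 2, against 20.3%, 5.72% and 13.4%. Between vehicle groups 7 of these 11 passed as lower in vehicle_b, with differences of -4.15 for Acta2, -3.38 for Tagln, -1.74 for Myl9 and -1.40 for Cnn2, and 1 passed as higher, against 16.6% and 10.6% of all loci. Ccn4, another CCN gene, went from 30.9 to 58.4 and from 32.5 to 57.7 TPM with BMP4, and from 26.4 to 25.7 and from 42.9 to 35.1 with BMP6. Its BMP4 change was 0.86 (limma adjusted p = 0.0272 with the block and 1 without), and the blocked call was lost without isolation 48 or 54 (up to 0.0946). Ccn5 was lower in vehicle_b by a difference of -3.30.

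Every difference between vehicle groups named for these lists was lost without either vehicle_b library, with limma adjusted p up to 0.195 for Axl, 0.166 for Dchs1 and 0.136 for Tead2. Those of Lats1, Dchs1, Tead2, Tead3, Tead4, Vgll3, Axl, Arhgef17, Patj and Rnf146 were also lost without the vehicle_a culture of isolation 54. Those of Dchs1, Axl, Patj and Rnf146 were further lost without either BMP6 library and when no filter was applied.

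The 5 genes closest to Amotl2 in their 4 within-isolation changes, by Euclidean distance among 11458 tested loci with a single gene name, were Smad9 (0.251), Tmem119 (0.345), Enc1 (0.393), Bcar1 (0.397) and Tnfrsf13c (0.401). Smad9, which encodes a BMP-responsive SMAD, went from 1.90 to 2.72, from 0.886 to 1.66, from 2.33 to 4.92 and from 1.91 to 4.22 TPM. Bcar1, which encodes the adhesion adaptor p130Cas, went from 84.6 to 108, from 82.0 to 126, from 42.9 to 75.1 and from 33.5 to 64.0 TPM, so that like Amotl2 it was lower in vehicle_b than in vehicle_a. So were Tmem119 (44.2 and 80.2 TPM in vehicle_a, 7.70 and 5.74 in vehicle_b) and Tnfrsf13c (11.5 and 54.9 against 0.452 and 0.830). Smad9 was not lower in vehicle_b, and the vehicle ranges of Enc1 overlapped. Enc1, a kelch-repeat gene, lay between 14.0 and 17.5 TPM in all 4 vehicle cultures and between 22.0 and 29.1 in all 4 stimulated ones. These distances use the same values that they describe and are given without a test.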

How the data were processed

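From 500 ng of RNA the authors made strand-specific poly(A) libraries and read 50 nt from single ends, per the labels' protocols. The submitters' processing notes name STAR 2.7.11a, SAMtools 1.17 and the build GRCm39. TPM, FPKM and coverage signal were deposited by the authors as StringTie 2.2.1 output, run without a strand option per the file headers, so antisense and overlapping genes are uncertain. Coverage times transcript length over read length gave estimated reads. limma 3.58.1 (R 4.3.3) was fitted to log2(TPM + 0.5) over 4 group means and 16908 loci (mean of at least 0.5 TPM). It used a variance trend, two-sided Benjamini-Hochberg adjustment over all loci and a threshold of 0.05. The code was tested on simulated data with residual noise set below the unblocked spread of these libraries. That test does not show how the fit performs at the real spread. This scale understates changes of low genes. An exact permutation of 2 against 2 libraries cannot go below 0.333 and was not used. The labels pair the cultures of an isolation, and paired deviations correlated at 0.707 (isolations 48 and 54) and 0.455 (75 and 77), so the blocked fit is printed where it changes a call. Named genes are the 10 members, list genes that passed (at most 4 per list and comparison), the 5 genes most like Amotl2, and Id1, Smad6 and Smad7. The members and lists were chosen with earlier results of these data known. Protein sequences were not used here.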

Additional observations from a re-analysis of the deposited data

Results flagged for a closer look

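Ccn1 moved in opposite directions in the 2 experiments, in every isolation: it was lower with BMP4 in isolations 48 and 54 and higher with BMP6 in isolations 75 and 77. The BMP6 change minus the BMP4 change was 2.58 on the log2 scale, and the test of that difference did not pass (limma adjusted p = 1.00, and 0.274 with the isolation as a block). Wwtr1 was higher in both BMP4 isolations and lower in both BMP6 isolations, with log2 changes of -0.01 in each of the latter. Its difference was -0.24 and did not pass either (limma adjusted p = 1.00, and 0.331 with the block). A direction like that of Wwtr1 was shown by 7.52% of tested loci. Groups of 2 are too small for a check of single outlying libraries.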

How the results depend on the processing

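Each ligand has 2 isolations, and replicates differed by more than counting noise. With the replicate block, members passing went from 0 to 1 (BMP4), 1 (BMP6) and 1 (mean), with Amotl2 at 0.68, 1.03 and 0.86. voom on estimated reads with that block passed 4 (Wwtr1, Ccn1, Amotl2 and Ajuba), 1 and 1, with Amotl2 at 0.69, 1.04 and 0.87. All loci passing went from 4 to 107 (BMP4), 2 to 25 (BMP6) and 12 to 114 (mean) with the block, and to 1039, 73 and 346 with voom and the block, which passed 30 in the difference between ligands instead of 0. Without the filter 1 member (Amotl2) passed between vehicle groups, instead of 4, and 2490 loci instead of 4602; 8, 12 and 7 loci passed for BMP4, BMP6 and the mean.
Only the libraries of 1 experiment gave 0 (BMP4) and 12 (BMP6) loci. Other pseudocounts, filters, median-ratio scaling and FPKM changed no call of a member.
Leaving out 1 library or isolation gave 0 to 3 members passing with BMP4, 0 to 2 with BMP6, 0 to 4 in the mean, 0 to 1 in the difference between ligands and 0 to 5 between vehicle groups, where loci passing ranged from 5 to 5551. Each of these fits leaves 1 library in at least 1 group. Its count of passing members therefore does not show whether members passed more often than other loci. Amotl2 ranged from 0.46 to 0.91 with BMP4, 0.99 to 1.07 with BMP6, 0.74 to 0.97 in the mean and -1.15 to -0.80 between vehicle groups.
Directions reversed in the same settings for several genes, Ccn2 among them. With BMP4 the ranges were -0.57 to 0.43 (Amot), -0.14 to 0.20 (Amotl1), -0.32 to 0.06 (Yap1), -0.11 to 0.38 (Tead1), -0.14 to 2.94 (Ccn2) and -1.02 to 0.28 (Vgll2). With BMP6 they were -0.05 to 0.02 (Amot), -0.12 to 0.13 (Amotl1), -0.08 to 0.06 (Yap1), -0.06 to 0.13 (Tead1), -0.23 to 0.44 (Ankrd1) and -0.08 to 0.05 (Ajuba). In the mean they were -0.29 to 0.21 (Amot), -0.07 to 0.10 (Amotl1), -0.16 to 0.03 (Yap1), -0.04 to 0.21 (Tead1) and -0.67 to 0.22 (Ccn1). In the difference between ligands they were -0.45 to 0.56 (Amot), -0.19 to 0.15 (Amotl1), -0.07 to 0.31 (Yap1), -0.34 to 0.15 (Tead1), -2.37 to 0.72 (Ccn2) and -0.99 to 0.03 (Ankrd1). Between vehicle groups they were -0.00 to 0.16 (Yap1) and -0.50 to 0.05 (Ajuba). Without the block, leaving out 1 library leaves a vehicle and a stimulated group that no longer hold the same isolations. In the blocked fits the BMP4 change kept its sign for Amot (-0.09 to -0.07) and Yap1 (-0.24 to -0.02). So it did for Tead1 (0.12 to 0.15) and Ccn2 (0.39 to 2.41). It did not for Amotl1 (-0.03 to 0.09), and in the mean Ccn1 also changed sign (-0.62 to 0.18). The cause was not tested.
The comparison between vehicle groups has no blocked fit, because isolations are nested in the experiments.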
